A study of Mus musculus with 36 samples.

Results

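Myelinating oligodendrocytes are described here by 32 genes of the mature myelin-forming cell, chosen by symbol as known genes of that cell and not by a cut on their values. All 32 symbols were present among the 24421 symbols of the deposited tables, and all 32 passed the filter on low values in each of the 4 comparisons. By role they fall into 8 proteins of the myelin membrane, 7 proteins of contact, junction and surface, 6 of the cytoskeleton, 5 enzymes, 4 secreted proteins, and a pair made up of a transcription factor and a chaperone. 7 of them (Cldn11, Gsn, Car2, Enpp2, Trf, Apod and Cryab) are also made at high level by other cell types and are kept apart where the remaining 25 are summarised.

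The libraries are of polyadenylated RNA of mouse hippocampus, 6 per group with 3 females and 3 males. In the aging arm, young and old C57BL/6 mice of 8 and 18 months carried the label control, and a further group of 18 months received nanoligomer, an antisense agent on a peptide nucleic acid backbone; the series title names NF-κB and NLRP3 as what was lowered. In the transgenic arm, all mice were 4 months old: non-carrier littermates and APP/PS1 mice, an amyloid model, both labelled control, and APP/PS1 mice given nanoligomer. The sources used here name neither the promoter that drives the transgenes, the dose, the duration nor a vehicle, and do not say whether libraries came from separate animals, so p-values measure the spread between these libraries. Female 3 of the treated APP/PS1 group held 0.913 M reads and was left out, which leaves 5 libraries there and 35 in all, of 27.6 to 46.3 M reads.

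Oligodendrocytes wrap axons in spiralled sheets of membrane that are held compact by basic proteins and are rich in galactolipids and cholesterol. A mature cell makes myelin transcripts in large amounts under the control of SOX10 and MYRF, the latter a factor of the myelinating stage, whereas precursors express another set of genes. In the hippocampus myelin lies mainly in the white matter that borders it, the alveus, the fimbria and the overlying callosal fibres.

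Both factors are known from other work to bind short motifs, so the stretch upstream of the members' start sites was searched on both strands for CTGGCAC and CTGGTAC, forms of the MYRF motif, and for ACAAAG and ACAATG, forms of the SOX core. RefSeq windows of 250 bases (GRCm38.p6) were at hand for 25 of the 32 members. A MYRF form was present in 4 of these 25 genes (16%), against 6.79% of all 27025 genes of the same table, and a SOX form in 11 of 25 (44%), against 28.2%. Both kinds occurred in 3 of 25 (12%), against 1.79% of all genes. The median G and C content was 57.2% over the members' windows and 52.4% over all windows, and a match is a description of letters only.

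The 4 members with a MYRF form, and Mobp with 6 copies of the SOX core, are shown as examples. Each line runs 5′ to 3′ on the gene's strand, with both kinds of motif in capitals in either orientation, and ends where the annotated gene begins: Mog is chr17:37023399-37023648 (minus strand), Mag chr7:30914874-30915113 (minus), Cnp chr11:100574689-100574903 (plus), Hapln2 chr3:88027584-88027761 (minus) and Mobp chr9:120149492-120149706 (plus).
Mog: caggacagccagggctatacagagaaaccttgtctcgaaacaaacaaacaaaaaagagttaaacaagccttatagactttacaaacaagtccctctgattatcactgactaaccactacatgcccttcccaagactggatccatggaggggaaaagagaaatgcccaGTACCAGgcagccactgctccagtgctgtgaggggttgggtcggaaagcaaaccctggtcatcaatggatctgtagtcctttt
Mag: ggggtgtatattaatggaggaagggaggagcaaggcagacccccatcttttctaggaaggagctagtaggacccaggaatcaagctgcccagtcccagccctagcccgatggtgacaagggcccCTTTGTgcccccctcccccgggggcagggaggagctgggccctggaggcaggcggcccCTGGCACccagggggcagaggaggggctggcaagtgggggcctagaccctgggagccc
Cnp: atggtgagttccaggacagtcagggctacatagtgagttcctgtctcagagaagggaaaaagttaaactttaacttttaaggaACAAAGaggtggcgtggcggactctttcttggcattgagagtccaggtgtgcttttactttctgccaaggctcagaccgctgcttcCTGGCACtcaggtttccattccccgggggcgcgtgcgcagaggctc
Hapln2: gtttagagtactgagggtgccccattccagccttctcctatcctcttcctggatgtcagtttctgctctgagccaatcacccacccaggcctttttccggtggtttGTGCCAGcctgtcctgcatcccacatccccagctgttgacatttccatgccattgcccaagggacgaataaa
Mobp: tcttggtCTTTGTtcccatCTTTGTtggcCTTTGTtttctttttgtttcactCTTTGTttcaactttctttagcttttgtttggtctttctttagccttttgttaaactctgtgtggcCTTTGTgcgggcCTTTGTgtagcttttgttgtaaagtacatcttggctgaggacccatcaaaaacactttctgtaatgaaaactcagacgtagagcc
The Mog line holds GTACCAG, the reverse complement of CTGGTAC, and the Hapln2 line GTGCCAG, that of CTGGCAC. Mag and Cnp carry CTGGCAC in forward orientation, each with a SOX core further from the start. The SOX form counted for Hapln2 lies in the part of the window inside the annotated gene. In the Mobp line all 6 copies are CTTTGT, the reverse complement of ACAAAG.

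Several libraries stood apart in the RNA of cells and regions that are not oligodendrocytes. The 16 choroid plexus markers summed to 16.1 to 4349 counts per 1 M reads (CPM) over young libraries and 26.4 to 271 over old ones. Young male 1 had the highest choroid sum and the lowest sum of 12 neuron markers of its group (9146 CPM, against a group median of 14537). APP/PS1 female 1 held 7965 CPM of neuron markers, against a median of 15182, with 3230 CPM of 11 measured striatum markers, against 355. Treated old female 3 had 3360 CPM of striatum markers, against a median of 309, and APP/PS1 female 3 had 1209 CPM of microglia markers and 1029 of precursor genes, against medians of 477 and 580. Of 6 Schwann cell markers, which would point to myelin of nerves, 3 were under 1 CPM in every library.

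Read per length of merged exons (reads per kilobase and 1 M reads, RPKM; GENCODE annotation of GRCm38), Mbp, the basic protein that compacts the membrane, stood first. Its level was 438 ± 102 RPKM in young, 494 ± 64.4 in old and 437 ± 104 in treated old libraries (SD, n = 6 each). It was 345 ± 105 in littermates, 349 ± 49.9 in APP/PS1 (n = 6 each) and 309 ± 30.7 in treated APP/PS1 libraries (n = 5). Within each arm the groups overlapped. The old libraries lay above all APP/PS1 and treated APP/PS1 libraries but overlapped the littermates. The share of all genes that lie apart between these groups was not counted. Every value of the transgenic arm against the aging arm also sets 4 months against 8 and 18 and a second mouse line, and the tables of the arms were normalized apart, so RPKM and CPM were computed from recovered reads over the total of each library.

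Among the other membrane proteins, Mal, a proteolipid of lipid rafts, had group means of 47.2 to 68.8 RPKM and Cldn11, the claudin of the tight junctions between myelin layers, 54.3 to 70.7. Mobp, an abundant basic protein of compact myelin, lay between 31.3 and 59.7 RPKM, Pllp, a plasmolipin of the membrane, between 27.3 and 40.9, and Mog, the surface antigen of the outermost layer, between 21.8 and 28.0. Tspan2, a tetraspanin, and Opalin, a transmembrane protein of the myelin sheath, were lower, at 15.5 to 18.6 and 5.37 to 9.07 RPKM. Mog therefore stood far below Mbp in every group, whereas Mal and Cldn11 did not differ beyond their spread.

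Of the proteins of contact and surface, Mag, the adhesion molecule that faces the axon, was highest, with group means of 41.3 to 59.3 RPKM. Tmem88b followed with 16.7 to 26.7, Hapln2, a link protein of the nodal matrix, with 9.55 to 20.8, Gpr37, a receptor that regulates oligodendrocyte maturation, with 10.3 to 14.8, and Gjb1, the connexin 32 of gap junctions within the myelin sheath, with 8.37 to 15.6 RPKM. Tmem125 (2.78 to 4.55) and Ninj2, an adhesion molecule (0.728 to 2.37), closed the group. Hapln2 means were higher in all 3 groups of the aging arm than in the 3 of the transgenic arm, with overlapping libraries. So were those of Mag, Tmem88b, Gpr37, Gjb1 and Ninj2, and of Mbp, Mobp, Mal and Pllp. Tmem125 differed, with 3.32 RPKM in treated old libraries and 3.71 in littermates. The geometric mean of the 25 members not made elsewhere averaged 53.4, 59.7 and 52.2 CPM in young, old and treated old libraries. It averaged 41.9, 42.7 and 38.4 CPM in littermates, APP/PS1 and treated APP/PS1 libraries.

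The cytoskeletal proteins were led by Cnp, the phosphodiesterase that keeps cytoplasmic channels open, at 65.7 to 90.8 RPKM. Gsn, an actin-severing gelsolin, had means of 17.9 to 22.9 RPKM and Ermn of 13.5 to 18.2. Ppp1r14a, an inhibitor of myosin phosphatase, lay at 9.24 to 14.8 RPKM. Plekhh1 lay at 6.10 to 7.73 RPKM and Anln, the anillin that scaffolds septins, at 3.02 to 4.56. Among enzymes, Car2, a carbonic anhydrase, lay at 61.5 to 77.3 RPKM and Qdpr, which regenerates tetrahydrobiopterin, at 50.6 to 71.9. Fa2h, which hydroxylates the fatty acids of galactolipids, lay at 15.7 to 20, Ugt8a, which adds their galactose, at 8.02 to 9, and Aspa, which frees acetate from N-acetylaspartate, at 1.56 to 1.99 RPKM. Ugt8a thus spanned the narrowest range of group means among the enzymes in relative terms. Qdpr and Car2 means were higher in the aging arm, as were those of many other members.

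Trf, the iron carrier transferrin, had the highest mean after Mbp in old libraries, 126 ± 33.0 RPKM, and 62.9 ± 7.52 in treated APP/PS1 libraries. Apod, a lipid-binding lipocalin, ranged from 35.2 ± 2.47 RPKM in treated APP/PS1 to 84.9 ± 21.5 in old libraries. Enpp2, the lysophospholipase autotaxin, which choroid plexus also secretes, had a mean of 114 ± 91.1 RPKM in young and 89.4 ± 87.8 in treated APP/PS1 libraries and of 29.7 to 40.2 in the other 4 groups. Klk6, a serine protease, was lowest by the median over all libraries, at 0.397 ± 0.240 RPKM in littermates and 2.86 ± 1.10 in old libraries. Myrf itself had means of 10.1 to 14.4 RPKM and Cryab, the small heat shock protein alpha B crystallin, of 57.1 to 87.0.

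**Figure D1:**
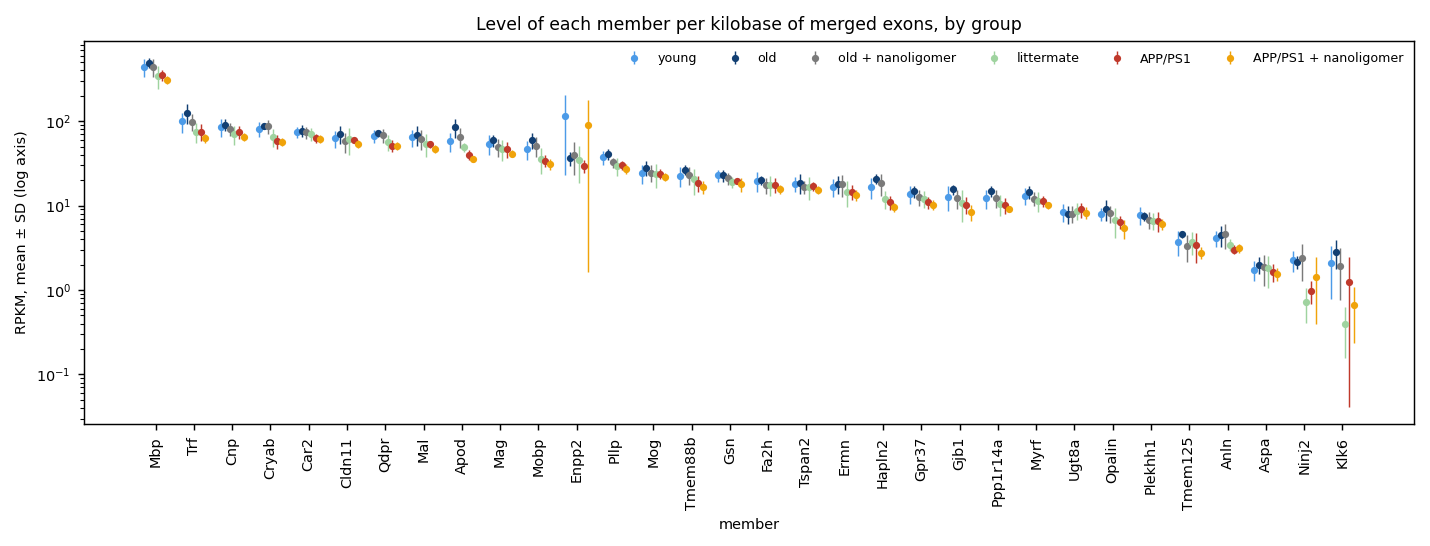
Mean RPKM of each member in each group (points, log axis) with SD (lines), ordered by the median over libraries, n = 6 libraries per group and 5 for treated APP/PS1. Mbp lies far above the rest, Klk6 and Ninj2 lie lowest, and error bars are wide for Enpp2 in young and treated APP/PS1 libraries and for Klk6.

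Klk6 and Ninj2 were the members with the fewest reads, and both had lower group means in the transgenic arm, with overlapping libraries. APP/PS1 female 1 had 5.21 CPM of Klk6 and treated APP/PS1 female 2 had 2.94 CPM of Ninj2, within the range of the aging arm. Klk6 lay at 1.68, 2.23 and 6.82 CPM (lowest, median and highest library) in young mice and at 0.191, 0.587 and 1.21 in littermates, where 7 to 44 reads were counted per library. These control groups of different age and line did not overlap, and the share of all genes that do not was not counted. Ninj2 lay at 1.18, 2.14 and 2.81 CPM in young mice and at 0.381, 0.590 and 1.23 in littermates, which do overlap, with 14 to 57 reads in littermates. No test was run between the arms.

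Within each group most of the 32 members moved together from library to library, with Enpp2, Klk6 and Ninj2 the loosest. In young mice, female 2 had the lowest value of the group for 28 of 32 members and male 1 the highest for 31. Treated old female 2 was lowest for all 32 members and treated old female 3 highest for 30. Among littermates, female 3 was lowest for 29 and female 2 highest for 31.

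In the other 3 groups the extremes were shared by fewer members. Old male 3 was lowest for 22 members and old female 2 highest for 20, APP/PS1 female 1 was highest for 20 and APP/PS1 female 3 lowest for 16, and in treated APP/PS1 mice male 2 was highest for 18 and male 3 lowest for 15. The geometric mean of the 25 members not made elsewhere ran from 33.4 to 73 CPM in young, 47.6 to 73.1 in old and 32.3 to 72.1 in treated old libraries. It ran from 30.2 to 64.0 CPM in littermates, 36.0 to 55.4 in APP/PS1 and 33.6 to 44.5 in treated APP/PS1 libraries. The ratio of the highest to the lowest library was therefore 2.18, 1.54 and 2.23 in the aging arm and 2.12, 1.54 and 1.32 in the transgenic arm, in the order named. In these bulk samples, more oligodendrocytes or white matter and more RNA per oligodendrocyte cannot be told apart.

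**Figure D2:**
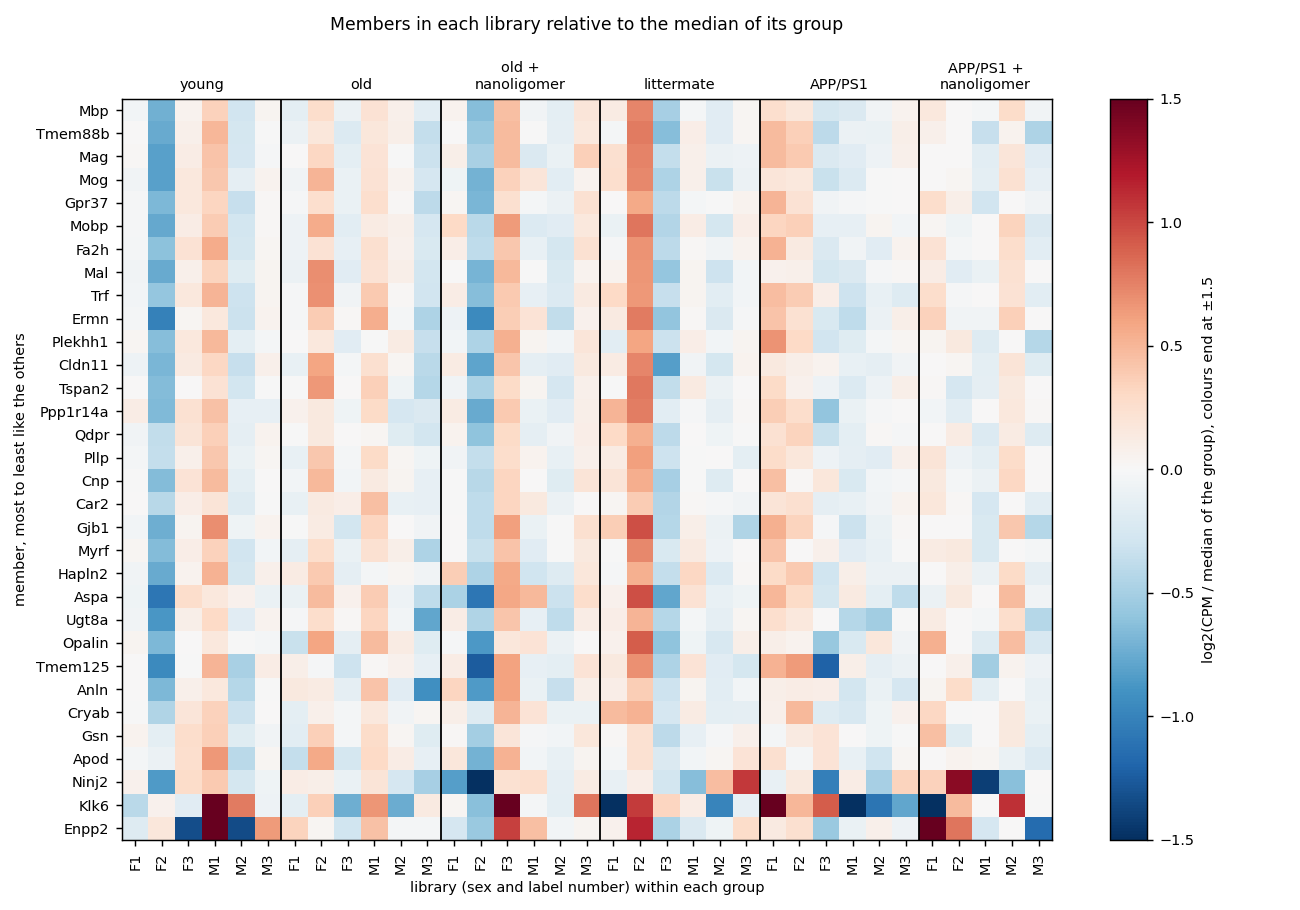
Each member (rows, ordered by likeness to the others) in each of 35 libraries (columns, by group), as log2 of its CPM over the median of its group. Whole columns are blue (young F2, treated old F2, littermate F3) or red (young M1, treated old F3, littermate F2), while Enpp2, Klk6 and Ninj2 at the bottom follow patterns of their own.

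To measure this, each gene's log2(CPM + 1) was set to its deviation from the mean of its group and sex, and each member was correlated over the 35 libraries with the mean of the other members that are not made elsewhere. These coefficients are descriptions, since all points share library and depth. Mbp was most like the rest (r = 0.981), followed by Tmem88b (0.974), Mag (0.971), Mog (0.967) and Gpr37 (0.959). The coefficient exceeded 0.9 for 21 of the 32 members. Over 10340 other genes with a mean of at least 10 CPM its median was 0.03 and 0.135% exceeded 0.9.

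The members that followed the rest least were Enpp2 (0.504), Klk6 (0.523), Ninj2 (0.650), Apod (0.745), Gsn (0.758) and Cryab (0.805). Of these, 4 are among the members made elsewhere, and Klk6 and Ninj2 are those of few reads. Trf (0.949), Cldn11 (0.931) and Car2 (0.912), also made elsewhere, were over 0.9. Of the 5 genes whose upstream sequence is printed above, Mag, Mog, Mobp (0.951), Cnp (0.914) and Hapln2 (0.902) were all over 0.9. Members with neither motif in their windows lay on both sides of 0.9, as with Gpr37 (0.959), Mal (0.949), Anln (0.817) and Gsn. Klk6 and Opalin (0.877), which have a SOX form, were under it. A link between the motifs and the shared movement was not tested.

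Genes outside the 32 members that followed their mean most closely were Tmem63a (0.956), Plekhb1 (0.948), Gatm (0.941), Adamts4 (0.940) and Galnt6 (0.939). Pde8a (0.918), Kif13b (0.916), Prr18 (0.914), Lpar1 (0.913) and Evi2a (0.910) came next. Tmem63a, Plekhb1, Prr18, Lpar1 and Evi2a stood on the list of other mature oligodendrocyte genes, and the other 5 stood on none of the 14 lists.

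As whole lists, the mean of 38 other mature oligodendrocyte genes had r = 0.958 with the members' mean (Spearman 0.928, and r = 0.948 without the 2 libraries farthest from the median). The 20 genes of precursors and newly formed oligodendrocytes had r = 0.06 and the 21 genes of cholesterol synthesis -0.07. Ependymal markers had 0.467, choroid plexus markers 0.350, fibroblast markers -0.40 and neuron markers -0.18. The oligodendrocyte genes of disease states had 0.298, striatum markers 0.269 and thalamus and habenula markers 0.177. Microglia markers had -0.13, endothelial markers 0.07, astrocyte markers -0.02 and Schwann cell markers 0.01. Young male 1 and littermate female 2, which were highest in the members, were also the highest of their groups in choroid plexus markers, at 4349 and 640 CPM, and so was treated old female 3 at 572. Other libraries went the other way: old female 2, highest for 20 members, held 56.3 CPM (group 26.4 to 271), treated APP/PS1 male 2, highest for 18, held 302 against 4228 in female 1, and young female 2, lowest for 28, held 1828. Young male 1 also held 1258 CPM of thalamus and habenula markers, against a group median of 302. Littermate female 2 (276 CPM, median 281) and treated old female 3 (246, median 248) were near the medians of their groups. The part of neighbouring tissue in the shared movement was not tested.

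For age, old mice were set against young mice to ask how hippocampal RNA differs between 8 and 18 months. Estimates were mostly small and positive: 29 of 32 members had a higher estimate in old libraries. Since most members moved together from library to library, they are not separate observations, here and in the counts of members that follow. The members' median was 0.17 on the log2 scale, against -0.00 over all genes tested, of which 48.6% were positive. None of the 32 members was called at an adjusted p under 0.05 by limma, edgeR or DESeq2, against 0.0361% of all genes by limma. 5 members (4 higher, 1 lower) had an unadjusted p under 0.05, where 6.13% of all genes did (3.37% higher, 2.77% lower). At that threshold edgeR gave 3 (6.6% of all genes) and DESeq2 6 (7.3%). No member had groups that did not overlap, against 0.403% of genes higher and 0.102% lower.

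Apod (chr16:31296192-31314808), known to rise in the aging brain, lay at 105, 139 and 217 CPM (lowest, median and highest) in young and at 162, 208 and 308 in old libraries. All 6 old libraries were above the young median, and the groups overlapped. Its log2 fold change was 0.57 ± 0.17 (SE, n = 6 per group; adjusted p = 0.587, limma). Enpp2 (chr15:54838901-54952892) lay at 212, 538 and 1618 CPM in young and at 160, 197 and 269 in old libraries. Of the young libraries, 2 lay within the range of the old ones and 4 above it, and the log2 fold change was -1.28 ± 0.40 (adjusted p = 0.603, limma).

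All 16 choroid plexus markers had lower estimates in old libraries, with a median of -1.97 on the log2 scale and 6 at an unadjusted p under 0.05. With their mean as a covariate the estimate of Enpp2 was -0.47 ± 0.21 (adjusted p = 0.733), and that of Apod was 0.70 ± 0.20 (adjusted p = 0.527).

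Hapln2 lay at 23.6, 40.1 and 57.7 CPM in young and 43.0, 47.0 and 61.7 in old libraries, with a log2 fold change of 0.37 ± 0.16 (adjusted p = 0.810, limma). Mobp lay at 194, 329 and 428 CPM against 327, 389 and 574, with 0.39 ± 0.18 (adjusted p = 0.810), and Gjb1 at 12.6, 21.1 and 34.3 against 21.6, 26.1 and 32.5, with 0.35 ± 0.16 (adjusted p = 0.810). For Hapln2 5 of 6 young libraries, and for Mobp and Gjb1 3 of 6, lay below every old library. Young female 2 was lowest in each and young male 1 highest. Without young female 2 the log2 fold changes were 0.23 for Hapln2, 0.25 for Mobp and 0.22 for Gjb1. The median of the members was then 0.05 and 2 members had an unadjusted p under 0.05 (5.15% of all genes in that fit). There were also 2 without old female 1 (6.76%), old female 2 (4.8%) or young male 2 (7.19%). There were 3 without old male 1 (6.26%) or young male 3 (6.47%), 8 without old male 3 (6.51%) and 10 without young male 1 (5.54%). Old male 3 held 898 CPM of striatum markers, against a group median of 255, and young male 2 held 1905, against 347.

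By role, the 8 membrane proteins all had positive estimates (median 0.19) and so did the 6 cytoskeletal ones (0.11). Of the 7 contact proteins 6 were positive (0.29) and of the 5 enzymes 4 (0.08), with Ugt8a at -0.05. The count and the sign depended on the covariates fitted. With the choroid plexus mean alone 2 members had the opposite sign and 4 had an unadjusted p under 0.05 (6.68% of all genes). With choroid plexus, striatum and thalamus marker means as 3 covariates in these 12 libraries, the median of the members became -0.40. None was then called, against 0.00601% of all genes. An unadjusted p under 0.05 was reached by 10 members, all lower, where 4.49% of all genes reached it. They were Ugt8a (-0.88), Aspa (-0.80), Plekhh1 (-0.68), Mal (-0.64), Cnp (-0.56), Fa2h (-0.55), Mog (-0.55), Mag (-0.54), Gpr37 (-0.51) and Myrf (-0.47), all at an adjusted p of 0.932.

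**Figure D3:**
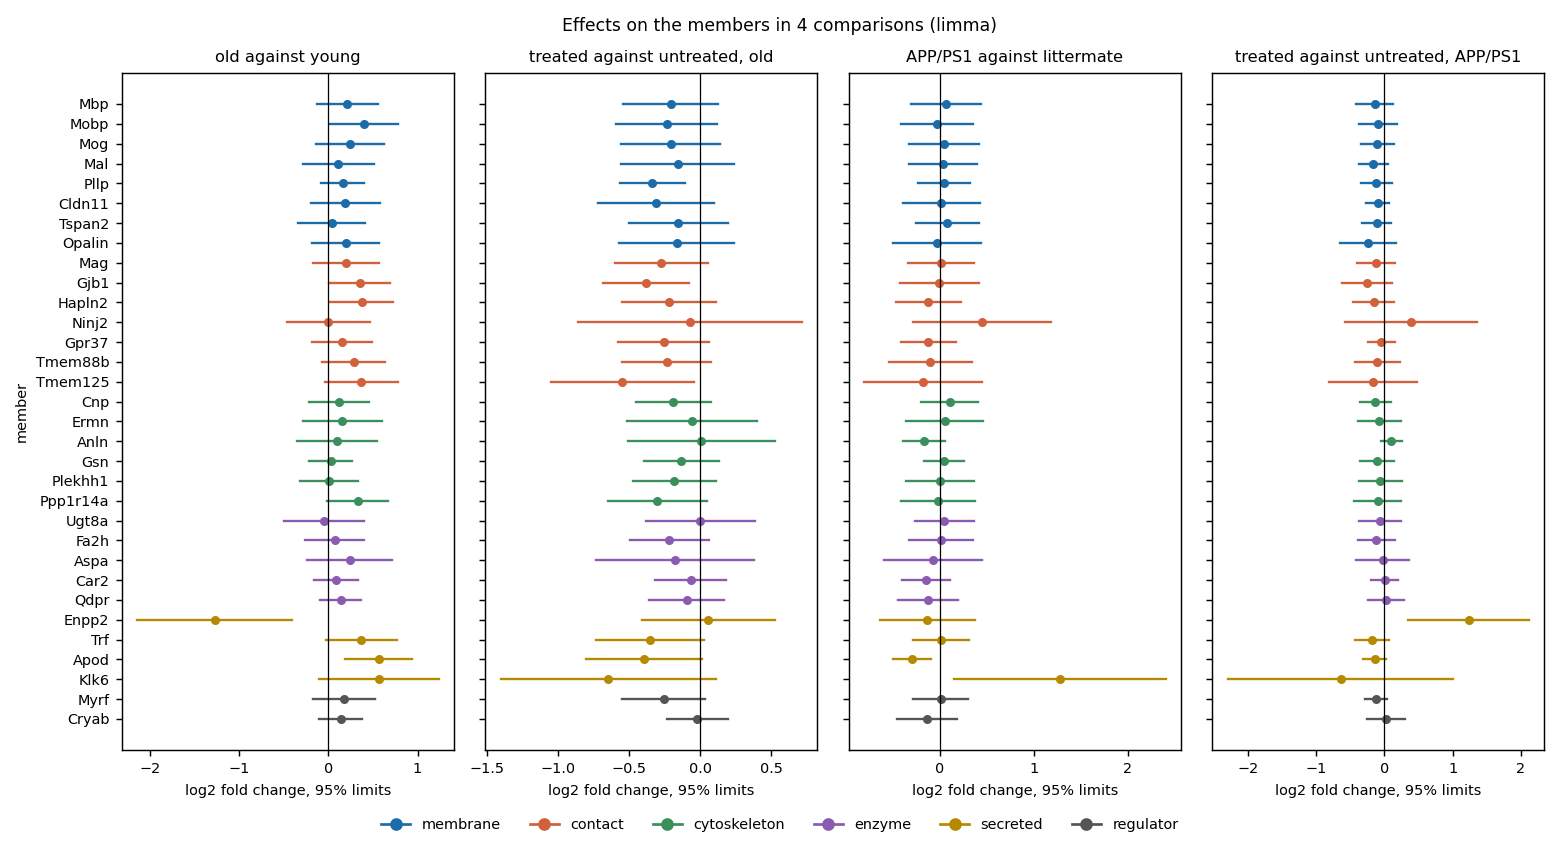
Log2 fold change of each member in the 4 comparisons (points, limma) with 95% limits (lines), coloured by role. Most intervals cross 0 in each panel. Enpp2 lies farthest from 0 with age (-1.28) and Klk6 with the transgenes (1.28), where its interval is wide.

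The age comparison was also fitted with the mean of the 38 other mature oligodendrocyte genes as a covariate, a choice made after seeing the data. The standard errors of tightly linked members fell: that of Mobp went from 0.18 to 0.07 and that of Gjb1 from 0.16 to 0.07. Estimates were then positive for 22 of 32 members with a median of 0.05. No member was called, against 0.0301% of all genes, and 8 (7 higher, 1 lower) had an unadjusted p under 0.05, where 8.25% of all genes did (3.9% higher, 4.35% lower).

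Higher estimates at that threshold were those of Apod (0.46 ± 0.13), Mobp (0.25 ± 0.07), Hapln2 (0.25 ± 0.08), Gjb1 (0.23 ± 0.07), Trf (0.22 ± 0.07), Ppp1r14a (0.21 ± 0.09) and Tmem88b (0.15 ± 0.05). The lower one was Enpp2 (-1.37 ± 0.42). Relative to other oligodendrocyte genes of the same library, these members thus kept a higher estimate in old mice, with adjusted p of 0.421 to 0.573.

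**Figure D4:**
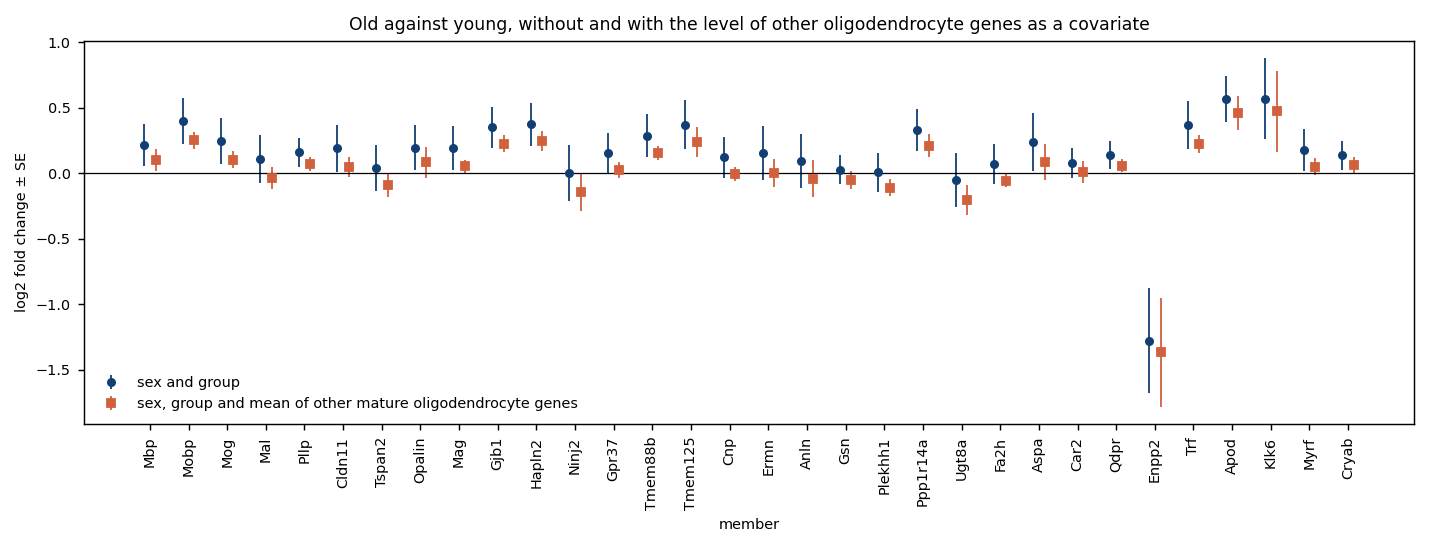
Log2 fold change of old against young for each member, fitted with sex and group (circles) or also with the mean of other mature oligodendrocyte genes (squares), ± SE. Squares lie closer to 0 with shorter bars for most members, while Apod and Enpp2 change little.

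For treatment in old mice, nanoligomer against control at 18 months, 29 of 32 members, again not separate observations, had a lower estimate. Their median was -0.21 on the log2 scale, against -0.00 over all genes, of which 51% were negative and 49% positive. The old libraries are those of the age comparison, so both sets of estimates share them. No member was called by limma, edgeR or DESeq2, and limma called none of all genes (0%). At an unadjusted p under 0.05 there were 3 members, all lower, where 7.22% of all genes were (3.6% lower), with 2 by edgeR and 5 by DESeq2. Groups did not overlap for 0 members, against 0.121% of genes higher and 0.133% lower. Over all genes 1192 passed that threshold with limma, 1185 with edgeR and 1320 with DESeq2.

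Pllp (chr8:94674894-94696278) lay at 73.8, 79.6 and 105 CPM in old and 53.2, 68.0 and 81.5 in treated old libraries. The groups overlapped, with 5 of 6 treated libraries below every old library, and the log2 fold change was -0.34 ± 0.11 (adjusted p = 0.678, limma). Gjb1 lay at 21.6, 26.1 and 32.5 CPM against 15, 19.5 and 29.8, with -0.38 ± 0.14 (adjusted p = 0.678). Tmem125 lay at 8.83, 10.9 and 11.6 CPM against 3.27, 7.76 and 11.8, with -0.55 ± 0.23 (adjusted p = 0.678), and Apod at 162, 208 and 308 CPM against 101, 165 and 236, with -0.40 ± 0.19 (adjusted p = 0.678).

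Treated old female 2 was low and treated old female 3 high in each of these 4 genes. Leaving out female 3, the library with the high striatum sum, gave a median of -0.30 and 14 members at an unadjusted p under 0.05, where 7.02% of all genes passed. Leaving out female 2 gave -0.31 for Tmem125, -0.25 for Apod, a median of -0.09 and 3 members (7.36% of all genes), and leaving out old male 3 gave 9 (13.3%). All 8 membrane and all 7 contact proteins had negative estimates, whereas Anln (0.01), Ugt8a (0.00) and Enpp2 (0.06) were the 3 positive ones. With choroid plexus, striatum and thalamus means as covariates 15 members, all lower, had an unadjusted p under 0.05, where 11% of all genes did. Their adjusted p was 0.284 to 0.446, and 0.00605% of all genes were called.

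With the other oligodendrocyte genes as a covariate, 4 members had an unadjusted p under 0.05, where 6.91% of all genes did (3.22% higher, 3.69% lower). Pllp stayed lower (-0.18 ± 0.06), and Anln (0.35 ± 0.15), Ermn (0.26 ± 0.11) and Ugt8a (0.25 ± 0.11) had positive estimates, all at an adjusted p of 0.703. Gjb1, Tmem125 and Apod were not among them.

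For the transgenes, APP/PS1 mice against non-carrier littermates at 4 months, estimates of the members fell to either side of 0: 17 were positive and 15 negative, with a median of 0.01, against 0.00 over all genes, of which 50.3% were positive and 49.7% negative. None was called by limma, edgeR or DESeq2, against 0.0486% of all genes by limma. Each of the 3 tools gave 2 members at an unadjusted p under 0.05, 1 higher and 1 lower. Of all genes limma gave 10.2% (4.72% higher, 5.46% lower), edgeR 10.1% and DESeq2 11.3%. No member had groups that did not overlap, against 0.437% of genes higher and 0.413% lower.

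Apod lay at 107, 124 and 145 CPM in littermates and 83.5, 102 and 121 in APP/PS1 libraries, with 4 of 6 APP/PS1 libraries below every littermate. Its log2 fold change was -0.29 ± 0.09 (adjusted p = 0.309, limma). With limma's library weights it was -0.37 with an adjusted p of 0.0313, in a fit that called 3.33% of all genes, and with the choroid plexus covariate -0.17 with 0.756. All 15 measured choroid plexus markers and all 12 fibroblast markers had lower estimates in APP/PS1 libraries, with medians of -1.02 and -0.88, and all 11 striatum markers had higher ones, with 1.01. With choroid plexus, striatum and thalamus means together Apod had -0.27, and the part of fibroblasts was not tested.

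Klk6 (chr7:43824499-43832030) lay at 0.191, 0.587 and 1.21 CPM in littermates and 0.363, 1.32 and 5.21 in APP/PS1 libraries, and the groups overlapped. The 3 APP/PS1 females had 5.21, 1.87 and 2.47 CPM and the 3 males 0.363, 0.617 and 0.770. The log2 fold change was 1.28 ± 0.52 (adjusted p = 0.421, limma), on few reads, 13 to 189 per APP/PS1 library, and it was 0.84 without littermate female 1. Anln (-0.17 ± 0.10, adjusted p = 0.622) and Ninj2 (0.45 ± 0.34, adjusted p = 0.695) came next by p.

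APP/PS1 female 1, the library with few neuron and many striatum transcripts, was the highest for 20 members. Without it the median of the members was -0.04 and 1 member had an unadjusted p under 0.05 (11.8% of all genes). Without littermate female 3 there were 4 (8.86%). Without APP/PS1 female 3 the median was 0.06 and 1 member had such a p (13.7%), and 1 did without littermate female 1 (8.76%). With the other oligodendrocyte genes as a covariate the members at that threshold were Apod (-0.30 ± 0.08), Anln (-0.18 ± 0.07), Car2 (-0.16 ± 0.07), Gpr37 (-0.13 ± 0.06) and Klk6 (1.27 ± 0.51), where 10.2% of all genes were (4.76% higher, 5.41% lower). Their adjusted p was 0.226 to 0.479, and 0.0668% of all genes were called in that fit.

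For treatment in APP/PS1 mice, 26 of 32 members, again not separate observations, had a lower estimate in the 5 treated than in the 6 APP/PS1 libraries. Their median was -0.11, against -0.00 over all genes, of which 50.6% were negative. These APP/PS1 libraries also serve the transgene comparison. No member and none of all genes (0%) was called by limma, and no member by edgeR or DESeq2. At an unadjusted p under 0.05 each tool gave 1 member, Enpp2, where limma gave 2.96% of all genes (1.45% higher, 1.51% lower; 477 in all), edgeR 471 and DESeq2 583.

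Enpp2 lay at 118, 175 and 207 CPM (lowest, median and highest) in APP/PS1 libraries. The treated libraries had 1390 and 516 CPM in females 1 and 2 and 249, 297 and 133 in males 1, 2 and 3, so that 4 of 5 lay above every APP/PS1 library. The log2 fold change was 1.24 ± 0.41 (adjusted p = 0.997, limma). All 16 choroid plexus markers had higher estimates, with a median of 2.51 and 12 at an unadjusted p under 0.05, and with their mean as a covariate Enpp2 had -0.08 ± 0.35. Without treated female 1 it had 0.77.

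Ttr, the transthyretin of the choroid plexus, shows the same libraries. In treated APP/PS1 mice it was 3521, 815, 73.2, 257 and 35.6 CPM in the order of the Enpp2 values, and in young mice it ran from 5.37 CPM in male 2 to 3747 in male 1, the libraries with 212 and 1618 CPM of Enpp2. Over the 35 libraries the deviations of Enpp2 had r = 0.897 with the choroid marker mean, and the next members were Gsn (0.450), Apod (0.444) and Fa2h (0.430). Mog had 0.257.

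**Figure D5:**
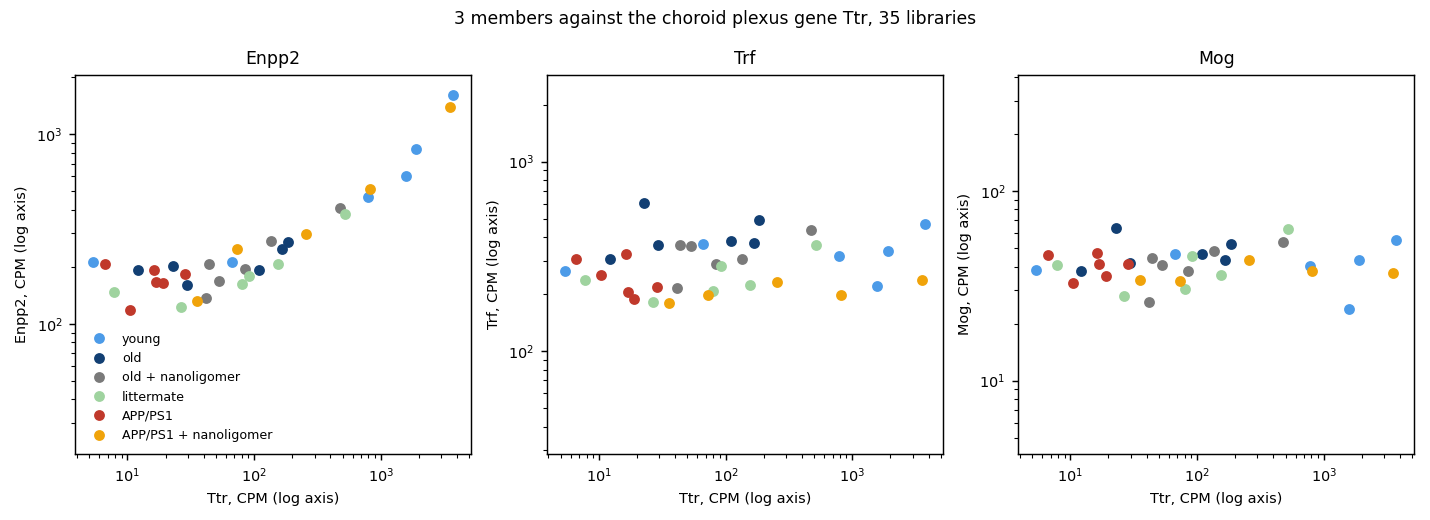
Enpp2, Trf and Mog against the choroid plexus gene Ttr in 35 libraries (points, coloured by group), both axes in CPM on log scales. The libraries with the most Ttr, young male 1 (3747 CPM) and treated APP/PS1 female 1 (3521 CPM), also have the most Enpp2. Trf and Mog vary over a narrower range than Enpp2.

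The next members by p in treated APP/PS1 mice were Apod, Myrf and Mal. Apod lay at 83.5, 102 and 121 CPM in APP/PS1 libraries and at 93.4, 96.6, 95.1, 87.3 and 81.3 in the treated ones, with -0.15 ± 0.07 (adjusted p = 0.997). Myrf had -0.12 ± 0.07 and Mal -0.16 ± 0.10, both at an adjusted p of 0.997. Treated male 2, the library highest for 18 members, held 1640 CPM of striatum markers, against a group median of 282. Without it the median was -0.17 and 6 members had an unadjusted p under 0.05 (2.85% of all genes). There were 2 without APP/PS1 female 3 (2.91%), APP/PS1 male 2 (3.11%) or treated male 1 (3.02%).

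Tests of a sex difference in each effect called no member by limma. None of the 32 had an unadjusted p under 0.05 for age (4.39% of all genes) or for treatment in old mice (4.71%), 1 did for the transgenes (5.1%) and 3 did for treatment in APP/PS1 mice (4.52%). The effect of the transgenes on Klk6 was lower in males by 2.01 on the log2 scale (SE 0.91, adjusted p = 0.847). For treatment in APP/PS1 mice the male minus female difference was 3.72 ± 1.09 for Klk6, -2.01 ± 0.58 for Enpp2 and -1.78 ± 0.75 for Ninj2, all at an adjusted p of 0.924 and with 2 treated females only. These females held 4228 and 1014 CPM of choroid plexus markers and the males 93.6, 302 and 70.4. With the choroid plexus covariate Klk6 and Enpp2 were no longer among the members at an unadjusted p under 0.05, which were then Ninj2 (-2.87), Cnp (0.82) and Trf (0.81), where 8.84% of all genes passed. Treated females 1 and 2 had 0.118 and 1.23 CPM of Klk6 and treated males 0.890, 1.90 and 0.889.

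Between male and female libraries themselves, no member was called and none had an unadjusted p under 0.05 in the aging table (7.5% of all genes). Among transgenic libraries there were 2 such members (6.13%), Trf (-0.35 ± 0.14, adjusted p = 0.768) and Klk6 (-1.25 ± 0.52, adjusted p = 0.768), both lower in males. Gjb1 lies on the X chromosome and was not among them.

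Effects in tables without a shared library were compared in joint fits. The effect of treatment in APP/PS1 mice minus that in old mice had an unadjusted p under 0.05 for 1 member (4.35% of all genes), Enpp2, at 1.18 ± 0.48 (adjusted p = 0.918, limma). The transgene effect minus the age effect had 2 such members (11.8% of all genes). These were Apod at -0.86 ± 0.21 (adjusted p = 0.172), which was -0.88 with an adjusted p of 0.0468 with library weights, in a fit that called 0.282% of all genes, and Enpp2 at 1.15 ± 0.50 (adjusted p = 0.382). Apod thus had a higher estimate with age and a lower one with the transgenes.

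Further lists of the lineage give the surroundings of the members. Of the 38 other mature oligodendrocyte genes, 28 had positive estimates with age (median 0.11), 3 with treatment in old mice (-0.15), 18 with the transgenes (-0.01) and 5 with treatment in APP/PS1 mice (-0.11), and none was called. Those with the smallest p were Bcas1 with age (0.42 ± 0.16) and with treatment in APP/PS1 mice (-0.36 ± 0.13), Lgi3 with treatment in old mice (-0.22 ± 0.08) and Grb14 with the transgenes (-0.25 ± 0.11). Bcas1 is known as a gene of cells at the start of myelination.

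Of the 20 genes of precursors and newly formed oligodendrocytes, 17 had negative estimates with age, with a median of -0.13. Gpr17, the receptor of cells on the way to myelination, fell with age, by 0.61 ± 0.06 on the log2 scale (adjusted p = 0.00159, limma), and no other gene of the 14 lists was called by limma with the settings of the main tests in the 4 comparisons. DESeq2 on recovered reads called further genes of these lists, with age among them B2m, C4b, H2-D1 and H2-K1 of the disease-state list. The medians of this list were -0.05 with treatment in old mice, 0.09 with the transgenes and -0.17 with treatment in APP/PS1 mice.

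The 21 cholesterol synthesis genes had medians of 0.00, -0.04, 0.15 and 0.05 in the 4 comparisons in the same order, with 5 of them higher at an unadjusted p under 0.05 with the transgenes. The 10 oligodendrocyte genes of disease states had medians of 0.47, -0.44, -0.13 and -0.15. Of these 10, 4 were higher with age at an unadjusted p under 0.05 and 4 were lower with treatment in old mice. The 12 microglia markers all had higher estimates with age (median 0.36), 9 of them at that threshold, and some genes of the disease-state list are made by microglia too.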

How the data were processed

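The authors deposited 4 tables of gene counts divided by size factors, a signal that is not whole-numbered, made with STAR, DESeq2 and mm10 per the submitters' processing notes; the sources used here name no settings or annotation. Each table held 12 libraries of polyadenylated RNA and was normalized apart. Dividing by the step of 1 read recovered whole reads (tolerance 0.001) for 100% of values, and CPM and RPKM were computed from these with GENCODE release 21 lengths. For treated APP/PS1 male 3 the column name and the title differ in 1 letter.

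Groups were compared with limma 3.58.1 (R 4.3.3) on log2(deposited value + 1) with an intensity trend, sex as a term, genes with a mean of at least 10, and Benjamini-Hochberg adjustment over all genes; fold changes are on that scale. Sex differences and differences between effects used interaction terms. edgeR 4.0.16 quasi-likelihood and DESeq2 1.42.0 on recovered reads were alternatives, with other pseudocounts, filters, weights, blocks, covariates and each library left out. The fold change estimates were checked on simulated counts, drawn separately for each gene and so without the members' shared movement. Library depth was 27.6 to 46.3 M reads, and the library of 0.913 M reads was left out of the main comparisons. Members and lists were chosen with earlier results of these data known. All members are named, with full statistics for those called and the 4 of smallest p per comparison; from each other list, called genes or at most 2 of smallest p.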

Additional observations from a re-analysis of the deposited data

Results flagged for a closer look

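Of 192 checks of a member in a group, 11 found 1 library far from the others of its group, where chance gives about 1 in 20. Littermate female 2 was the high library for Mobp (402.2 CPM), Tspan2 (125.4 CPM), Opalin (34.96 CPM), Fa2h (79.95 CPM), Enpp2 (378.4 CPM) and Myrf (148.4 CPM), and it was highest of its group for 31 of 32 members. Young female 2 was the low library for Opalin (15.19 CPM) and Aspa (5.112 CPM), and treated old female 2 for Opalin (13.62 CPM). The high library for Cnp in old mice had 434.4 CPM, and that for Myrf in APP/PS1 mice, female 1, had 126.2 CPM.

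The treated APP/PS1 library of 0.913 M reads, left out of the main comparisons, had no read for 23 of the 32 members. A count of 0 there allows up to 3.285 CPM, for counting error only. Above that limit were 7 members: Apod (231 CPM), Tspan2 (166.4 CPM), Enpp2 (159.9 CPM), Qdpr (66.79 CPM), Trf (41.61 CPM), Cnp (12.04 CPM) and Plekhh1 (6.569 CPM). Mbp had 1 read (1.09 CPM), against 2406 to 3007 CPM in the other treated APP/PS1 libraries. Tspan2 and Apod lay above those libraries, which held 63.5 to 83.6 and 81.3 to 96.6 CPM. This library thus differed from the others in its profile as well as its depth, and the cause was not tested.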

How the results depend on the processing

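No member was called at an adjusted p under 0.05 in the 4 comparisons under the settings tried, except Apod with the transgenes under library weights (1 member; 1 also in the transgene minus age difference). With the 3 region covariates 27 members had the opposite sign with age, 9 of them at an unadjusted p under 0.05. Counts at that threshold moved as follows, with the share of all genes in the same fit. With age there were 2 without intensity trend (5.98%), 8 with library weights (8.61%), 3 with edgeR (6.6%), 10 with region covariates (4.49%; median -0.40) and 8 with other oligodendrocyte genes as covariate (8.25%). With treatment in old mice there were 10 with library weights (14%), 5 with DESeq2 (8.02%) and 15 with region covariates (11%). With the transgenes there was 1 each with a mean of at least 50 (10.7%), library weights (18.2%), no sex term (10%) and region covariates (5.1%), 0 with the choroid plexus covariate (7.32%) and 5 with other oligodendrocyte genes (10.2%). With treatment in APP/PS1 mice there were 3 with region covariates (2.61%), Klk6 among them with its sign turned, and 0 with a median of -1.71 when the library of few reads was kept (0.49%). With other oligodendrocyte genes as covariate Ermn had its sign turned at that threshold with treatment in old mice.

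Leaving out each library gave 2 to 10 members with age (medians 0.05 to 0.27), 2 to 14 with treatment in old mice (-0.30 to -0.09), 1 to 4 with the transgenes (-0.11 to 0.14) and 1 to 6 with treatment in APP/PS1 mice (-0.17 to -0.06), and 0 to 0 at an adjusted p in each. Over all genes the unadjusted threshold was passed by 4.8% to 7.19%, 4.81% to 13.3%, 8.29% to 13.7% and 1.73% to 5.06%, respectively. For sex differences in effects, there was 1 member with age (4.96% of all genes) with the choroid plexus covariate. With treatment in old mice there was 1 with that covariate (6.41%) and 1 with library weights (7.52%). With the transgenes there were 0 without a filter (4.96%), with library weights (5.31%) or with the choroid plexus covariate (5.05%). Between sexes in the transgenic table there was 1 with library weights (6.05%) and 0 with the choroid plexus covariate (4.07%). That covariate also gave 0 for the difference between the treatment effects (3.3%). The cause was not tested. The labels do not say whether same-numbered libraries share animals or batches, and correlations of their deviations ran from -0.25 to 0.29. Because these deviations are from means of few libraries, they cannot show whether a batch was shared. With the replicate block there was 1 member with the transgenes (10.7% of all genes) and 3 with treatment in APP/PS1 mice (2.72%). Depth limits Klk6 and Ninj2, which rest on few reads.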
